A study of Drosophila melanogaster x Drosophila sechellia and Drosophila melanogaster and Drosophila sechellia with 12 samples.

Results

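The D. melanogaster allele of the F1 hybrid between Drosophila melanogaster and Drosophila sechellia was compared with the same allele in D. melanogaster itself. Both readings are of the D. melanogaster sequence, in a cell of its own species and in a hybrid cell, but whether the hybrids and the D. melanogaster flies came from the same stock is not stated. Members were the editing sites with at least 50 reads assigned to the D. melanogaster sequence in each of 5 libraries, namely 2 from D. melanogaster and 3 from F1 hybrids. This rule kept 923 of the 1058 listed sites, which lay in 271 of 309 clusters when neighbours no more than 1000 bases apart were put together. Editing was expressed as G in percent of the D. melanogaster reads (A plus G) at a position, called its level here. Every library was prepared from female heads, of adults aged 0 to 2 days, by amplifying 493 loci from cDNA and sequencing the products. Another group, a mixture of both parent species (2 libraries), holds the same allele from D. melanogaster cells in a mixture that also contains D. sechellia. It served as the control for assigning reads to species. Whether it came from the stocks or RNA of the separate parents is not stated. None of these 3 groups carries the Adar mutation of the study's remaining hybrids, per the labels. The labels name neither the stocks nor the direction of the cross, and they do not say whether replicates came from separate sets of flies. A p-value here therefore refers at most to variation from library to library, part or all of which may be technical. For single sites that variation was estimated largely from other sites and lay close to counting error.

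RNA editing of the A-to-I kind is made by Adar, an enzyme that binds double-stranded RNA and converts adenosine to inosine, which is read as G in cDNA. In flies a single Adar gene serves the nervous system, and many of its targets are transcripts of neuronal channels, receptors and synaptic proteins. The level at a site depends on the fold of the RNA itself, which travels with the allele (cis), and on the enzyme and other factors of the cell, which both alleles of a hybrid share (trans). An allele that passes from a parent into its hybrid keeps its cis sequence and meets a new trans environment. Sites are named by their position in the dm3 build, since no annotation of that build was used here.

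D. melanogaster reads numbered 367712 and 332756 in the D. melanogaster libraries, 202421, 213880 and 184205 in the F1 libraries, and 159254 and 172779 in the mixed libraries. The median member had 316 and 341 reads in the D. melanogaster libraries, 159 to 187 in the F1 libraries and 135 and 148 in the mixed libraries. The 95% Wilson interval of a single library's level had a median half-width of 2.27 to 3.50 percentage points over the 5 libraries of the rule, and at most 12.7 points. These intervals cover counting error only, since PCR reads without molecular identifiers are not independent molecules. The profile of D. melanogaster coverage over the members set the D. melanogaster libraries apart from the F1 and mixed libraries. Log2 read counts correlated by 0.734 to 0.758 between a D. melanogaster and an F1 library, and by 0.713 to 0.727 between a D. melanogaster and a mixed library. The correlation was 0.943 to 0.961 between an F1 and a mixed library and 0.952 to 0.963 between F1 libraries. It was 0.960 between the mixed libraries and 0.934 between the D. melanogaster libraries. The part of this coverage difference in the results was not tested. Just inside the rule were 3R 20763151 (lowest count 50) and 2L 6002057 (51), and just outside were 3L 8733120 (49) and 2R 20799527 (48).

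The assignment of reads was examined at 16 members where the parent species read almost pure G and almost pure A. At 11 of them D. melanogaster was at 95% G or more and D. sechellia at 5% or less. D. melanogaster reads at those sites were 92.7% to 100% G in the F1 libraries, 93.0% to 100% in the mixed libraries and 94.2% to 99.7% in the D. melanogaster libraries, and none of the 11 changed by more than 0.776 points between D. melanogaster and F1. Of the 11, 2R 13262546, 2R 13262611, 2R 13262620 and 2R 13262655 are neighbours on 2R. D. melanogaster reads there were 96.1% to 99.7% of all reads in F1 and 95.3% to 99.8% in the mixed libraries. With so few D. sechellia reads present, these neighbours can show little about misassignment. At the other 5, where D. sechellia was the species reading G, the F1 libraries held 0.595% to 11.4% G on D. melanogaster reads, the mixed libraries 0% to 11.4% and the D. melanogaster libraries 0% to 3.08%. All 5 had a higher mean in F1 than in D. melanogaster, towards the D. sechellia base, by up to 7.47 points, and 2 of them passed the test described in the comparison of single sites (X 4253674, adjusted p = 0.000254, and 3L 13854637, adjusted p = 0.00634). The highest of these was X 4253674, at 5.13%, 11.4% and 7.69% in F1, 9.84% and 11.4% in the mixed libraries, and 0.775% and 0.402% in D. melanogaster. Both mixed libraries and the F1 libraries lay above both D. melanogaster libraries there. Yet none of the 417 reads at that site in the D. sechellia libraries had been assigned to D. melanogaster. In the Adar-mutant hybrids, D. melanogaster reads at X 4253674 were 10.4%, 100% and 97.1% G (replicates 1, 2 and 3). With such values on the D. melanogaster sequence, the site cannot be taken as a measure of read assignment alone. The source of this G was not tested. Over all members, a median of 0.251% of the reads of the D. sechellia libraries were assigned to the D. melanogaster sequence, and 127 members had 5% or more.

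**Figure D1:**
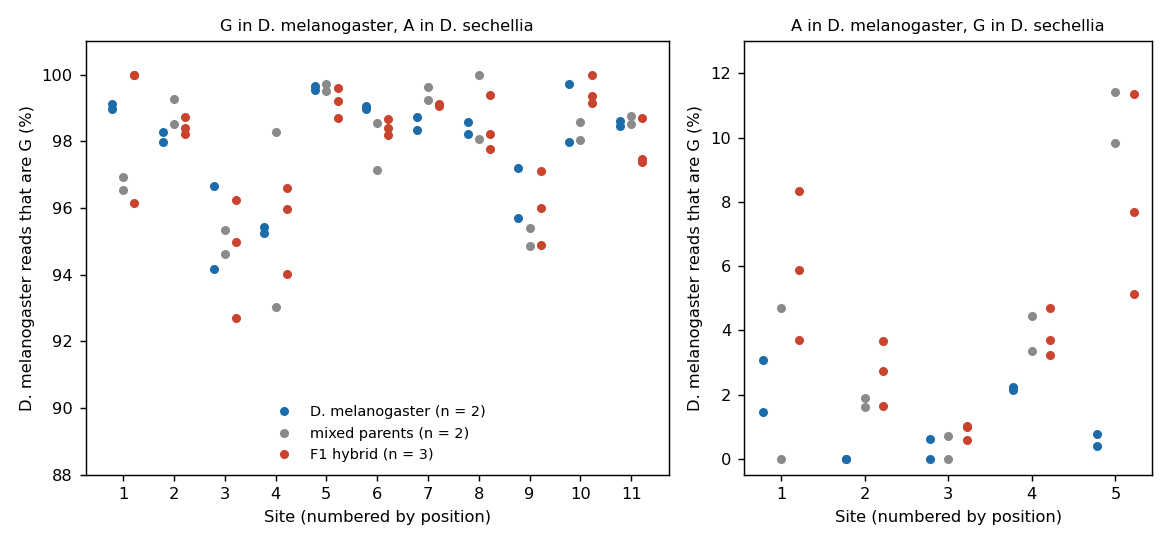
Percentage of G among D. melanogaster reads (vertical axis) at the 11 sites that read G in D. melanogaster and A in D. sechellia (left; axis from 88%) and the 5 sites with the opposite bases (right), 1 point per library, coloured by group. F1 and mixed libraries stay within 92.7% to 100% on the left, and on the right they reach 11.4% where the D. melanogaster libraries reach 3.08%.

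Editing of the D. melanogaster allele did not differ in overall level between the hybrid and its own species beyond the spread between libraries. The mean over the 923 members was 18.1% and 18.2% in the D. melanogaster libraries (mean 18.2% ± 0.0690, SD, n = 2) and 18.6%, 17.6% and 17.9% in the F1 libraries (mean 18.0% ± 0.505, n = 3). The F1 libraries lay on both sides of the D. melanogaster pair. The difference was -0.174 points (exact two-sided permutation test, p = 0.7, adjusted 0.7 over 3 comparisons, where 3 against 2 libraries allow no p under 0.1). It changed sign without F1 replicate 2, at 0.0348 points. The mixed libraries were at 18.0% ± 0.470 (n = 2) against 18.6% ± 0.0557 (n = 2) in D. melanogaster over the 896 sites that those 4 libraries share, where 2 against 2 libraries can reach no adjusted p under the threshold (exact permutation test, adjusted p = 0.7). A typical member changed little: the median absolute change between D. melanogaster and F1 means was 1.19 points, with 1.38 to 1.58 points for the 6 pairs of 1 F1 and 1 D. melanogaster library. The same median was 0.888 points between the D. melanogaster libraries and 1.32 to 1.47 points between 2 F1 libraries.

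Single sites did change. Of the 923 members, 758 had a mean level of at least 1% and were tested, and 84 of them (11.1%) passed an adjusted p of 0.05 in a quasi-binomial test of the G and A reads. In F1, 45 were higher (5.94% of those tested) and 39 lower (5.15%), and they were spread over 52 of the 227 clusters tested. The balance of directions moved with the test: of 116 calls by Fisher's exact test on pooled reads 51 were higher, and of 19 calls by limma 15 were higher. At 275 of the 758 sites (36.3%) the F1 libraries did not overlap the D. melanogaster libraries, 124 above (16.4%) and 151 below (19.9%). The change was under 5 points at 621 tested sites (81.9%) and over 10 points at 39, of which 34 were called, and the median absolute change of the called sites was 8.68 points. Before adjustment 188 sites had a p under 0.05. The count of 84 depended on the libraries used. It was 25 and 40 without D. melanogaster replicate 1 and 2, 39 and 55 without F1 replicate 2 and 3, and 19 with limma on arcsine-transformed levels. The sites that stayed called in each of up to 15 refits of F1 against D. melanogaster numbered 16, of which 13 were higher and 3 lower in F1. These 16 lay in only 8 clusters, and most of the 13 rises lay in 1 stretch of 284 bases on 2R. Of the 16, only 3R 1062097, 3R 1062054 and 2R 4771250 were also called between F1 and the mixed libraries.

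**Figure D2:**
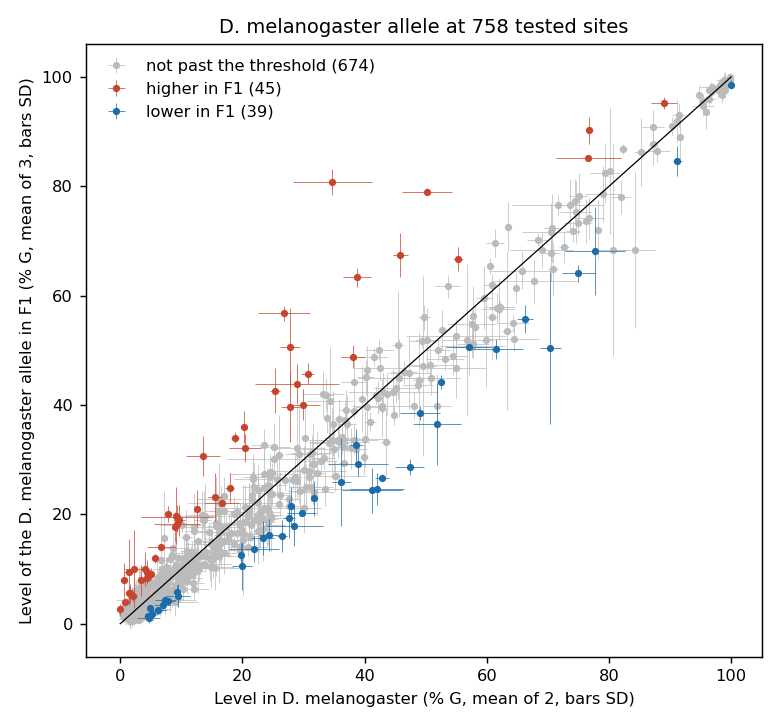
Mean D. melanogaster allele level in F1 (vertical, n = 3) against the level in D. melanogaster (horizontal, n = 2), in percent G with SD bars, for the 758 tested sites. Grey points did not pass the threshold, red points (45) were higher and blue points (39) lower in F1, and the line marks equal levels.

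Called sites were found at all levels of editing. Grouped by the mean over the 7 libraries of the 3 groups, 29 of 154 sites between 20% and 50% were called (18.8%, 14 higher and 15 lower), as were 11 of 65 between 50% and 80% (16.9%). Fewer were called among 217 sites between 5% and 20% (13.4%), 46 above 80% (10.9%) and 276 under 5% (3.62%), against 11.1% over all. Median changes differed too, at 0.704 points under 5% and 4.72 points between 50% and 80% (absolute values). By chromosome the share ran from 9.74% of 154 sites on X to 12.6% of 111 on 3L, and none of the 7 sites on chromosome 4 was called. On 2R 20 of the 24 called sites were higher in F1, 11 of them in a single cluster, and on X 11 of 15 were lower. These shares are descriptions, with no test between the classes.

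The largest rises stood together in a stretch of 284 bases on 2R, where 24 members lay and 23 were tested. Of these, 11 were called, all higher in F1, and at 16 members every F1 library lay above both D. melanogaster libraries (2 members lay below), against 5.94% called higher and 16.4% with F1 above over all tested sites. At 2R 13262533, the largest change of all, the level was 39.3% and 30.1% in the D. melanogaster libraries and 80.1%, 83.3% and 78.7% in the F1 libraries. All 3 F1 libraries stood far above both D. melanogaster libraries (34.7% ± 6.48, n = 2, against 80.7% ± 2.36, SD, n = 3; adjusted p = 1.61e-11). Its neighbour 2R 13262534 was at 29.8% and 23.7% in D. melanogaster and 55.5%, 56.6% and 58.2% in F1 (adjusted p = 5.19e-08). At 2R 13262374 the levels were 53.1% and 47.3% against 78.9%, 78.6% and 79.7% (adjusted p = 5.18e-08). Smaller rises were seen at 2R 13262386 (13.6% to 30.7%), 2R 13262563 (18.8% to 34.0%), 2R 13262562 (30.7% to 45.7%) and 2R 13262381 (7.75% to 20.1%), and these 7 sites remained called in every refit against D. melanogaster, though none was called against the mixed libraries (adjusted p from 0.155 to 0.950). Not every tested site of the stretch was called. The site 2R 13262542, which lies between risers, was at 1.94% ± 0.569 (n = 2) in D. melanogaster and 2.51% ± 0.520 (n = 3) in F1 (adjusted p = 0.629). The sites 2R 13262546, 2R 13262611, 2R 13262620 and 2R 13262655 read 98.4% to 99.6% G in D. melanogaster, where a rise has no room, and are among the 11 sites of the read-assignment control.

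The mixed libraries, which hold no hybrid cell, were also high in this stretch. They stood at 73.2% and 84.0% at 2R 13262533, at 47.2% and 56.4% at 2R 13262534 and at 68.5% and 77.2% at 2R 13262374, in each case above both D. melanogaster libraries. Against D. melanogaster, 7 sites of the stretch were called in the mixed libraries, with adjusted p-values from 6.53e-11 to 0.0340 (2R 13262382), and between F1 and mixed libraries none was called. A missing call does not show equal levels. At the sites called between F1 and D. melanogaster, F1 minus mixed ran from -1.17 points (2R 13262382) to 6.22 points (2R 13262374). In the D. sechellia libraries, on reads of that species, 2R 13262533 stood at 15.6% ± 0.396 (n = 2) and 2R 13262374 at 16.7% in both libraries, below the D. melanogaster levels. At 2R 13262533 the D. sechellia libraries gave 1 read assigned to D. melanogaster and 391 assigned to D. sechellia. From 2R 13262542 to the end of the stretch they gave 110 or 111 reads assigned to D. melanogaster at each site, or 14.0% to 27.9% of their reads. Among these sites are the risers 2R 13262562 (37 G of 110) and 2R 13262563 (41 G of 111, with a D. sechellia level of 98.3%). The part of such reads in the changes was not tested. Reads of the D. melanogaster sequence made up 88.7% to 99.7% of all reads of the stretch in F1 and 87.3% to 99.8% in the mixed libraries.

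Another group of rises lay on 3R, where no site was called between the mixed libraries and D. melanogaster and 3 of the 6 rising sites were called between F1 and the mixed libraries. In a stretch of 170 bases from 3R 1061931 to 1062100, 6 of 11 tested sites were called and all 6 were higher in F1 (5.94% were called higher over all tested sites). At 3R 1062097 the D. melanogaster allele was edited at 46.7% and 45.0% in its own species and at 69.3%, 62.8% and 70.1% in F1 (adjusted p = 3.25e-08), and the mixed libraries stood at 41.9% and 45.6%. At 3R 1062054 the levels were 76.4% and 77.2% in D. melanogaster, 74.8% and 76.2% in the mixed libraries, and 90.3%, 87.7% and 92.8% in F1 (adjusted p = 3.56e-07). In both cases every F1 library lay above all 4 libraries in which the allele came from D. melanogaster cells. The site 3R 1062100 went from 27.8% ± 1.43 (n = 2) to 39.6% ± 6.33 (n = 3), with an adjusted p of 0.000727. Both mixed libraries, at 30.4% and 32.8%, lay above both D. melanogaster libraries at 3R 1062100, and F1 against mixed missed the threshold there (adjusted p = 0.247). The site 3R 1062051 went from 17.9% ± 0.757 to 24.9% ± 2.75 and 3R 1061931 from 4.98% ± 0.253 to 9.11% ± 1.06, and 3R 1061977 rose by 2.84 points (adjusted p = 0.00824, 0.0140 and 0.0331). The D. sechellia levels were 0.506% at 3R 1062097, 94.3% at 3R 1062054, 49.8% at 3R 1062051 and 0.772% at 3R 1062100, so the rising sites lay both above and below the other species. No read of the D. sechellia libraries had been assigned to D. melanogaster at any of the 11 sites, and D. melanogaster reads were 51.8% to 57.7% of all reads in F1 and 42.9% to 49.0% in the mixed libraries.

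**Figure D3:**
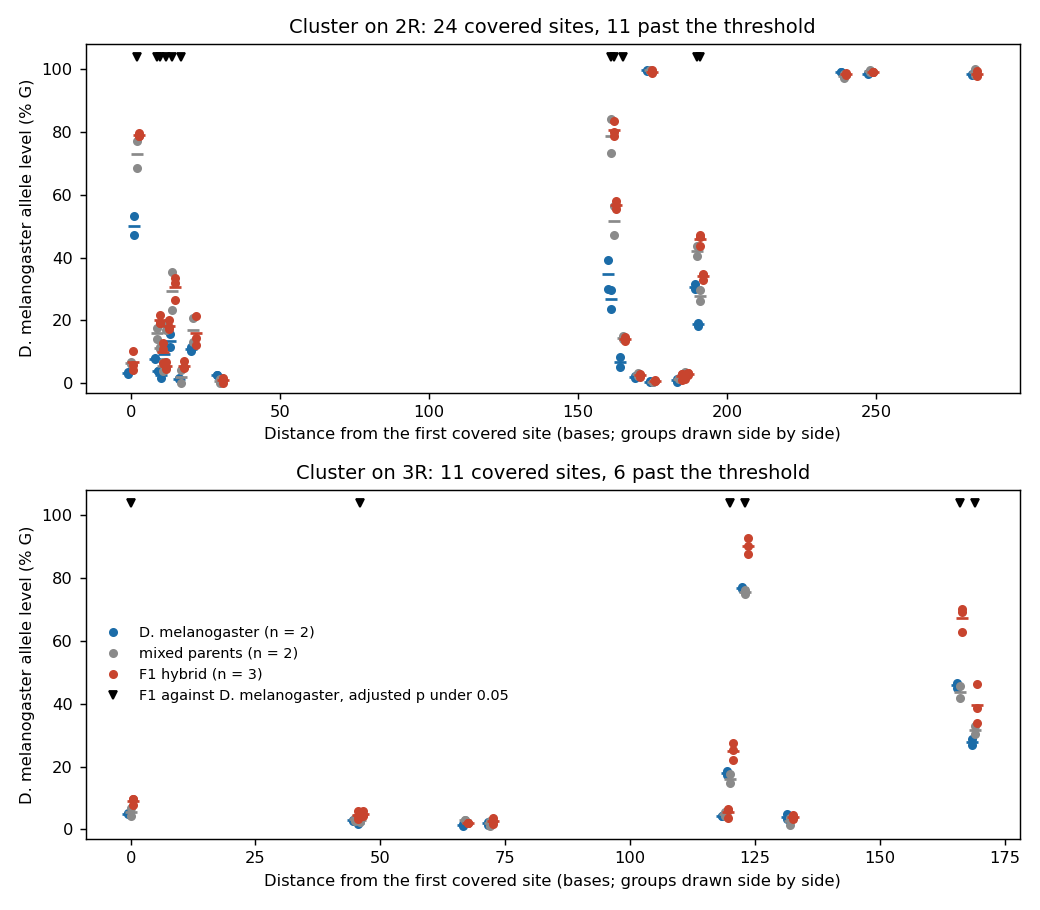
Level of the D. melanogaster allele (percent G) at the covered sites of the 2 clusters with most called sites, on 2R (24 sites) and 3R (11 sites), by distance in bases from the first site. Points are libraries, short lines are group means, and triangles mark sites called between F1 and D. melanogaster. At 2R 13262533 the mixed libraries (grey) stand at 73.2% and 84.0%, above both D. melanogaster libraries, and at 3R 1062097 at 41.9% and 45.6%, below all F1 libraries.

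Outside these stretches, the rises with the largest change were single sites or pairs of neighbours. The pair 2L 8201387 and 2L 8201337 went from 40.4% and 37.1% to 65.2%, 61.8% and 63.1%, and from 20.3% ± 0.451 (n = 2) to 36.0% ± 2.93 (n = 3), with adjusted p-values of 2.91e-06 and 5.42e-07. The mixed libraries spanned 41.3% to 57.7% at the first of them, above D. melanogaster and below F1. At 2L 8201337 they stood at 24.5% and 30.6%, also above D. melanogaster and below F1. F1 against mixed missed the threshold at both sites (adjusted p = 0.0797 and 0.0733). At this pair D. sechellia reads were almost missing from F1 and mixed libraries (D. melanogaster share 99.8% and 99.7% at 2L 8201387), and reads of the D. sechellia libraries had been assigned to D. melanogaster, 24 at 2L 8201387 (23 of them G) and 73 at 2L 8201337 (70 of them G), or 8.57% and 20.9% of their reads. At 3L 4369162 the F1 libraries were at 53.4%, 56.0% and 42.3% against 29.0% and 26.7% (adjusted p = 8.23e-07), and the mixed libraries at 54.3% and 47.2% overlapped them. At 2R 4771250 the F1 libraries were at 38.7%, 42.2% and 47.0%, above 26.0% and 24.7% in D. melanogaster (adjusted p = 2.91e-06) and above 27.6% and 30.6% in the mixed libraries. The site 2L 3503636 was at 35.0%, 30.6% and 30.8% in F1, 18.5% and 22.3% in D. melanogaster and 16.3% and 26.4% in the mixed libraries (adjusted p = 0.000348 for F1 against D. melanogaster). X 5525068 went from 28.9% ± 6.89 (n = 2) to 43.9% ± 3.64 (n = 3), with an adjusted p of 0.00240. The mixed libraries at X 5525068, at 42.6% and 35.7%, lay above both D. melanogaster libraries and overlapped F1 (adjusted p = 0.670 for F1 against mixed). Without D. melanogaster replicate 1 the last 2 sites missed the threshold (adjusted p = 0.110 and 0.199).

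**Figure D4:**
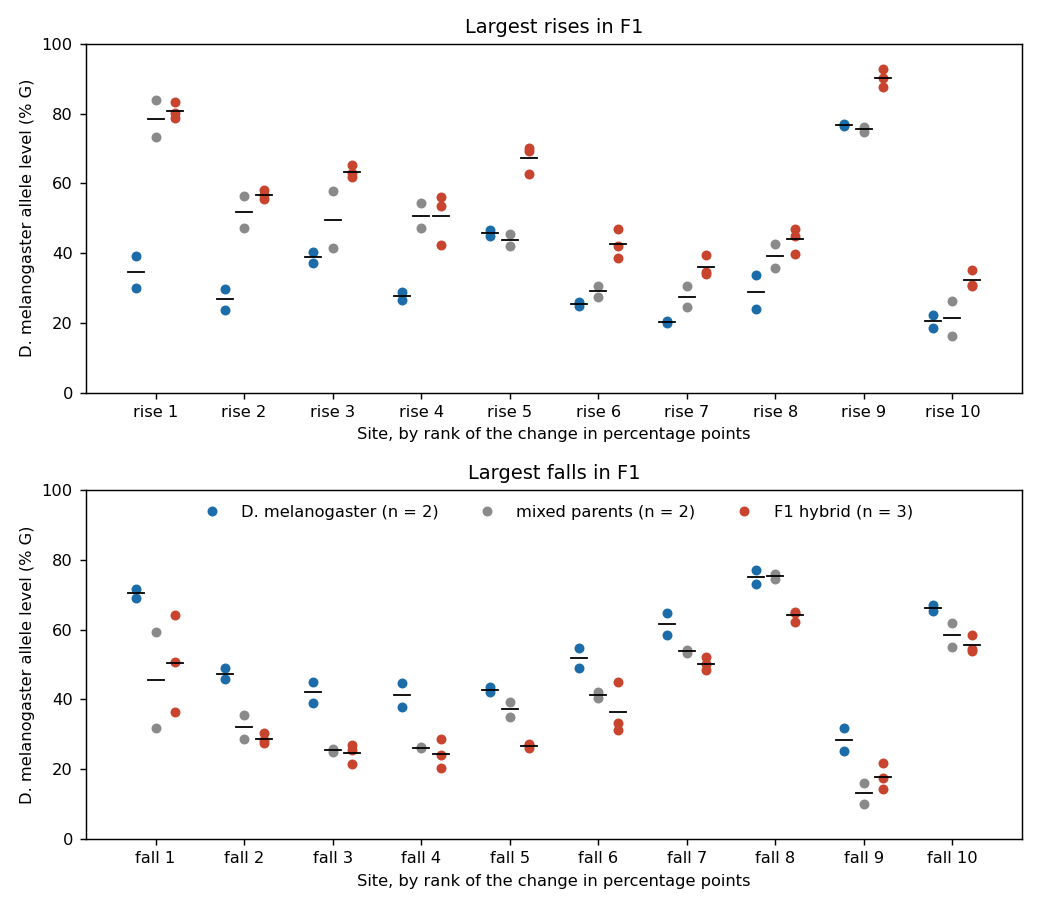
D. melanogaster allele level (percent G) in every library at the 10 largest rises and 10 largest falls in F1, at most 2 per cluster, ordered by the change in percentage points; short lines are group means. Rise 1 is 2R 13262533, rise 5 is 3R 1062097 and fall 8 is 3L 4590709. The mixed libraries (grey) lie above both D. melanogaster libraries at rises 1 to 4 and 6 to 8. They lie within or below the D. melanogaster range at rises 5 and 9. Of the 10 falls they lie within that range at fall 8 alone, and below both D. melanogaster libraries at the others.

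The falls were smaller than the largest rises and more scattered over the genome. At 3R 4067757 the level was 45.7% and 49.0% in D. melanogaster and 27.4%, 30.3% and 28.4% in F1 (adjusted p = 0.000264), with the mixed libraries at 28.7% and 35.4%. At X 641623 it was 44.7% and 37.8% against 28.6%, 20.4% and 24.2% (adjusted p = 0.000212), with 26.0% and 26.4% in the mixed libraries. The F1 and mixed libraries overlapped each other at both sites and lay below D. melanogaster. The site 3L 4198341 fell from 43.6% and 42.0% to 26.0%, 27.0% and 27.2% (adjusted p = 0.000153), and here the mixed libraries, at 34.9% and 39.4%, lay between the other groups. These 3 falls remained called in every refit against D. melanogaster that covered them, and against the mixed libraries none of the 3 was called (adjusted p = 0.723, 0.817 and 0.110). At 3L 4590709 the D. melanogaster libraries were at 77.0% and 73.1%, the mixed libraries lay between them at 74.6% and 76.0%, and the F1 libraries were all lower, at 64.9%, 65.1% and 62.3% (adjusted p = 0.000153). Its neighbour 3L 4590685 went from 52.6% ± 0.457 (n = 2) to 44.2% ± 1.22 (n = 3; adjusted p = 0.00615).

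The other named falls rested more on single libraries. The site with the largest fall, 2L 17371342, was at 69.2% and 71.6% in D. melanogaster and at 64.3%, 36.5% and 50.6% in F1, a wide spread (adjusted p = 0.00725). It missed the threshold without D. melanogaster replicate 1 (adjusted p = 0.111), D. melanogaster replicate 2 (0.141) or F1 replicate 2 (0.208). At 3R 24424516 the level fell from 42.0% ± 4.39 (n = 2) to 24.6% ± 2.87 (n = 3; adjusted p = 0.000713, and 0.0539 without D. melanogaster replicate 2). At 2L 3762337 it went from 61.5% ± 4.37 to 50.2% ± 1.79 (adjusted p = 0.000361, and 0.0808 without D. melanogaster replicate 1). At 3R 482227 it went from 28.5% ± 4.71 to 17.8% ± 3.69 (adjusted p = 0.00928), and without D. melanogaster replicate 2 or F1 replicate 2 the adjusted p was 0.197 or 0.152. The mixed libraries at that site, with 16.1% and 10%, were also below both D. melanogaster libraries. So they were at 2L 17371342 (31.7% and 59.4%), 3R 24424516 (25.0% and 25.8%) and 2L 3762337 (53.4% and 54.1%). The same held at 2L 6002057 (40.4% and 42.2%) and 2R 11759871 (55.1% and 61.8%). In the quasi-binomial test of F1 against mixed libraries, 2L 17371342 was not tested. The other falls of this paragraph were not called there (adjusted p from 0.495 to 0.971). The sites 2L 6002057 (51.9% ± 3.92 to 36.5% ± 7.50) and 2R 11759871 (66.3% ± 1.27 to 55.7% ± 2.53) were called at adjusted p = 0.0140 and 0.0308. The first missed the threshold without D. melanogaster replicate 1 or F1 replicate 2 or 3 (adjusted p from 0.0539 to 0.210), and the second without any of these or D. melanogaster replicate 2 (0.0848 to 0.209).

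F1 was also tested against the mixed libraries, where the allele came from D. melanogaster cells. It is not stated whether the mixed parents shared stocks or RNA with the separate parents or the hybrids. A hybrid effect therefore cannot be told apart from stock or preparation here. This comparison shares the F1 libraries with the comparison against D. melanogaster, and both of its groups hold reads of either species. Of 736 sites 7 were called (0.951%), 6 higher (0.815%) and 1 lower (0.136%) in F1, and 84 had a p under 0.05 before adjustment. At 3R 1062097 and 3R 1062054 F1 was higher by 23.6 and 14.7 points (adjusted p = 1.33e-06 and 1.39e-05), and of the 7 sites these 2 alone were called in every refit. Their neighbour 3R 1062051 was higher by 8.71 points (adjusted p = 0.0430), 2R 4771250 by 13.6 points (0.0405) and 2L 3503636 by 10.8 points (0.0405). The site 3L 4590709 was lower by 11.2 points (adjusted p = 0.0373). The last, 3R 11648190, was at 15.9%, 15.1% and 10.8% in F1 and at 5.78% and 7.26% in the mixed libraries (adjusted p = 0.0405). In D. melanogaster it was at 6.94% and 10.3%, and the change from there to F1 narrowly missed the threshold (adjusted p = 0.0540). The count was 2 without mixed parents replicate 1 or F1 replicate 2.

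In the mixed libraries against D. melanogaster, where no hybrid cell is present, 15 of 755 sites were called (1.99%), 9 higher (1.19%) and 6 lower (0.795%), with 102 at a p under 0.05 before adjustment. This comparison shares the D. melanogaster libraries with the first one and has 2 libraries in place of 3. Besides the 7 sites of the stretch on 2R and 3L 4369162, X 641623, 3R 4067757, 3R 482227 and X 4253674, already described, they were 2R 8646087, 3L 11168876 and X 3847285. At 3L 11168876 the mixed libraries were at 19.2% and 20.9%, the D. melanogaster libraries at 28.9% and 33.7% (adjusted p = 0.0208) and the F1 libraries at 35.1%, 29.0% and 29.4%. At 2R 8646087 the means were 26.1% ± 8.41 (n = 2) in the mixed libraries, 38.2% ± 1.02 (n = 2) in D. melanogaster and 33.7% ± 2.65 (n = 3) in F1. X 3847285 read G in all D. melanogaster reads of both libraries of that species, in 96.3% and 97.8% of the mixed and in 98.7%, 97.7% and 99.4% of the F1 libraries, while the D. sechellia level was 52.0%. The count was 9, 4 and 7 without D. melanogaster replicate 1, D. melanogaster replicate 2 and mixed parents replicate 2, and 7 with the stretch on 2R left out.

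Of the 52 clusters with a called site, 36 held 1, and 16 held 2 or more. In 14 of those 16 the called sites all moved in 1 direction, most often 2 sites. Sites that share an amplified locus are not independent, and this count carries no test. The other tested sites of a cluster did not always share the direction. Both calls around 2L 8201387 were rises, yet only 3 of the 7 tested sites of that cluster had a higher mean in F1 (median change -0.407 points). One exception was a stretch of 464 bases on 3L with 13 tested sites, of which 1 rose and 3 fell. There 3L 6942790 went from 15.5% ± 1.11 (n = 2) to 23.2% ± 4.38 (n = 3; adjusted p = 0.0218), while 3L 6943212 went from 38.9% ± 4.97 to 29.3% ± 2.32 (adjusted p = 0.0289). The sites 3L 6943191 and 3L 6943213 fell from 4.64% and 4.58% to 1.11% and 1.34% (adjusted p = 0.0209 and 0.0331). In the other exception 2R 11759381 rose by 5.03 points and 2R 11759871 fell by 10.6 points. The last cluster with 3 or more calls was a stretch of 383 bases on X, with 15 tested sites, 3 of them called and all lower in F1. These were X 1267594 (19.9% ± 1.61 to 10.5% ± 4.41, adjusted p = 0.00824), X 1267429 (7.40% to 4.36%) and X 1267647 (4.92% to 2.85%). Mixed libraries stood at 15.7% and 9.56% at X 1267594, below both D. melanogaster libraries and overlapping F1. They stood at 7.24% and 7.21% at X 1267429, and at 4.99% and 3.19% at X 1267647. In the stretches on X and 3L no site was called between mixed libraries and either other group. At 12 of the 17 members of the X stretch the F1 libraries all lay below both D. melanogaster libraries and at none above. Over all tested sites, 19.9% had F1 below. Up to 29.3% of the reads of the D. sechellia libraries were assigned to D. melanogaster at a site of that stretch.

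Some highly edited sites had nearly equal means, which is how they were chosen. The 5 members with the highest D. melanogaster level under 95% and a change within 1 point were 3L 2941426, 2L 9717614, 2R 20802381, 3L 2925255 and 2R 20802225. At 2L 9717614 the level was 90.4% and 90.4% in D. melanogaster and 92.5%, 89.2% and 91.2% in F1, and at 2R 20802381 it was 87.2% and 87.3% against 91.1%, 83.6% and 88.4%. The small changes at these sites follow from the choice and carry no test.

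The changes were compared between pairs of libraries that had none in common, to describe how far they repeat. Over 728 tested sites covered in all 7 libraries, the change from 1 D. melanogaster to 1 F1 library correlated with that from the other D. melanogaster to another F1 library by r = 0.581 to 0.680. The change to a mixed library correlated with the change to an F1 library by r = 0.298 to 0.559 over 12 such pairings. These correlations are across sites, many of which share an amplified locus, so they describe the libraries and carry no p. The change from mixed libraries to F1 on the D. melanogaster allele was set against the gap between the parent species (D. sechellia minus D. melanogaster), which uses other libraries. Over 661 sites r was 0.0204 and rho 0.107, and over the 626 sites under 95% G in both parents r was 0.0550 and rho 0.125.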

How the data were processed

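Loci were amplified by RT-PCR and pooled for sequencing, per the labels' protocols. BWA and the dm3 build are named in the submitters' processing notes, with no BWA version. The authors deposited whole-number counts of A and G reads per site for each species' sequence, and a rounded editing percent per the file headers, which the scripts did not use. How a read was given to 1 species is not given in the sources used here. Levels were computed from D. melanogaster counts.

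Sites were tested if each library compared had at least 50 D. melanogaster reads and their levels averaged 1% or more. The test was made by quasi-binomial logistic regression (R 4.3.3). Dispersions came from the D. melanogaster, mixed and F1 libraries, were moderated along coverage with limma 3.58.1 and kept from falling under 1. Their median was 1.09 for F1 against D. melanogaster, where 1 is counting error alone. A deviance F test was adjusted by Benjamini-Hochberg at 0.05. Replicates were compared first: no pair held the same values, and read counts varied beyond sampling noise (chi-square per degree of freedom 1.68 to 3.08).

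Members, site rules and tests were chosen with earlier results of these data known. The text names the 10 rises and 10 falls of greatest size among called sites without overlap between libraries, at most 2 per cluster, clusters with 3 or more calls, and 5 stable sites. Others were chosen after their values were seen. Lists of genes fixed for this work were not used, since sites carry no gene name here. Alternatives are given with their effect in the closing section.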

Additional observations from a re-analysis of the deposited data

Results flagged for a closer look

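Reads appeared on the sequence of the species that a parent library should not hold. The D. sechellia libraries had 3.76% (replicate 1) and 1.29% (replicate 2) of their reads assigned to D. melanogaster, and the D. melanogaster libraries had 2.10% (replicate 1) and 2.08% (replicate 2) assigned to D. sechellia. At the 11 sites that read G in D. melanogaster and A in D. sechellia, the reads of the D. sechellia libraries assigned to D. melanogaster were 95.9% G in replicate 1 (341 reads) and 96.9% in replicate 2 (163 reads). Most of these counts came from the stretch on 2R. There 2R 13262546, 2R 13262611, 2R 13262620 and 2R 13262655 gave 110 or 111 each over both replicates, against at most 24 at any other site. Sites so close can be covered by the same read, so the counts are not separate reads. The origin of reads on the other species' sequence was not tested.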

How the results depend on the processing

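The count for F1 against D. melanogaster (84) was 52 with no level minimum, 19 with limma, 50 with Adar F1 added as a group, 52 with the replicate number as a block and 40 with thinned reads. Leaving out 1 library gave 25 to 85. In 10 of 19 alternatives it stayed within 1.5 times. The count for mixed libraries against D. melanogaster (15) was 4 with limma, 29 with Fisher's exact test, 9 with Adar F1 added, 8 with thinned reads and, in an alternative chosen after seeing the data, 7 without the 2R cluster. Leaving out 1 library gave 4 to 11. The count for F1 against mixed libraries (7) was 2 with no level minimum, with limma, with the compared groups alone, with Adar F1 added, with the replicate block and with thinned reads, and 17 with Fisher's test. Leaving out 1 library gave 2 to 6. The difference of mean levels, -0.174 points, was 0.0325 with medians over sites and -0.454 to 0.0348 when 1 F1 or D. melanogaster library was left out, and -0.845 with 1 weight per cluster. The median absolute change, 1.19 points, was 1.61 and 2.69 with level minimums of 1% and 5%, 1.35 with thinned reads and 1.16 to 1.38 without 1 library. With the mixed libraries as the reference, 5 of the 19 named sites that could be tested stayed called and 12 lost the call, while 3L 4369162 turned to -0.173 points and 3R 482227 to 4.78. Same-numbered libraries did not deviate together (r from -0.257 to 0.00505), so the block pairs libraries by number only; under it 18 of the 20 named sites stayed called. The causes of these movements were not tested. Leaving out sites at 95% G gave 80 calls, and leaving out sites with 5% or more cross-assigned reads, chosen after seeing the data, gave 82.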

Other observations

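Adar-mutant hybrids (n = 3), which the comparisons above do not use, also hold the D. melanogaster allele in hybrid cells. Per the labels the mutation came with the D. melanogaster parent. At 3R 1062097 they stood at 61.2% ± 2.75 (SD, n = 3), nearer to F1 (67.4%) than to D. melanogaster (45.9%). At 3R 1062054 they stood at 83.9% ± 3.22, between D. melanogaster (76.8%) and F1 (90.2%). In the 2R stretch, 2R 13262374 was at 67.0% ± 3.93, between D. melanogaster (50.2%) and F1 (79.0%), while 2R 13262562 was at 25.9% ± 1.26 and 2R 13262563 at 16.9% ± 1.78, below both. These values were picked after the results above were seen and were not tested.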
